A study of Homo sapiens with 4 samples.

Results

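The regions described here are the promoter H3K27ac peaks of the colon cancer cell line COLO-205 that no other profiled line shares. A peak was a member when none of its bases overlapped a peak of DU-145, OVCAR-3 or SKOV-3 and its summit lay within 1 kb of the transcription start of a protein-coding gene. Chromosomes 13, X and Y and the window chr6:41000001-43000000 were left out. Of 12282 COLO-205 promoter peaks, 2890 were members (23.5%), and they lay at 2104 of 18536 protein-coding genes (11.4%). The whole series holds 251138 peaks. The members were chosen by 2 measured values, the overlap of peaks and the distance of the summit to a start, so both are a description and not a finding.

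The study profiled H3K27ac by ChIP-seq in 4 human cancer cell lines, COLO-205 (colon), DU-145 (prostate), OVCAR-3 and SKOV-3 (both ovarian), with chromatin prepared from 20 M cells and no treatment stated. Each line is 1 library, so no difference between lines could be set against a replicate error, no test between lines was run, and the line, its copy number and its library cannot be told apart. The exact Clopper-Pearson 95% intervals given below cover counting error only. Peak numbers ran from 14001 (SKOV-3) to 85576 (COLO-205) and estimated tags from 22.4 M (SKOV-3) to 36.0 M (DU-145), and peak values cannot be compared in size from library to library.

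H3K27ac is an acetylated histone residue found at active promoters and enhancers, and promoters acetylated in a single cell type often belong to genes of that type. Intestinal epithelium is specified by a network of homeodomain, nuclear receptor and GATA factors, among them HNF4A. Its cells mature into absorptive enterocytes with a brush border, mucus-secreting goblet cells and hormone-secreting enteroendocrine cells. A peak list holds only what passed a caller's threshold. A start with no peak in a line is therefore a start without a called peak and not a start without acetylation, and the mark is not a measure of mRNA.

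As a check of the labels, promoter peaks of any kind were looked up for defining markers of each tissue. In COLO-205, 3 of 7 colon markers (VIL1, LGALS4 and GPA33) had one, whereas OVCAR-3 had 1 (LGALS4) and DU-145 and SKOV-3 had 0. Other colon markers, among them KRT20, CDH17 and CEACAM5, had no called promoter peak in COLO-205. Markers of other tissues were also marked in COLO-205, with 3 of 5 prostate markers (KLK3, TMPRSS2 and SLC45A3), 4 of 6 ovarian markers (PAX8, WT1, EMX2 and MSLN) and 1 of 6 mesenchymal markers (ZEB1). DU-145, OVCAR-3 and SKOV-3 had 3, 2 and 1 of the prostate markers, 3, 6 and 2 of the ovarian and 3, 2 and 4 of the mesenchymal. DU-145 thus had no more prostate markers than COLO-205, and SKOV-3 fewer ovarian ones. None of 5 immune markers had a promoter peak in any of the 4 lines. Promoter peaks of COLO-205 were thus not limited to markers of colon.

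To show what these promoters look like, the reference sequence is printed at genes with strong members among intestinal regulators, brush border genes, goblet cell products and enteroendocrine genes. All are GRCh37 and read 5′ to 3′ on the strand of the gene. Each holds the 200 bases before an annotated start, except MUC2, for which the whole peak is shown. Of the former, only the HNF4A bases lie within a member. Those of EPS8L3, PHGR1 and NEUROG3 lie outside the members, and those of SST overlap its member only at the end next to the start. Capitals mark matches on either strand to any of the 12 motifs searched, which are spelled out with the promoter sequences as a group.
HNF4A, chr20:42984139-42984338, plus strand: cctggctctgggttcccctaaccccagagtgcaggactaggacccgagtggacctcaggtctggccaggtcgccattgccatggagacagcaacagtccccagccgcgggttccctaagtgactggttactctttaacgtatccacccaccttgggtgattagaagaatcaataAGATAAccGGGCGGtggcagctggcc
EPS8L3, chr1:110306650-110306849, minus strand: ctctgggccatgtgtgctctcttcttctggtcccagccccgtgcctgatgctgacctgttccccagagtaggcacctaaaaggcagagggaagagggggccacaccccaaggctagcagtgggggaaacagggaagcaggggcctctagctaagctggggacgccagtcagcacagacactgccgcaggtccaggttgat
PHGR1, chr15:40643034-40643233, plus strand: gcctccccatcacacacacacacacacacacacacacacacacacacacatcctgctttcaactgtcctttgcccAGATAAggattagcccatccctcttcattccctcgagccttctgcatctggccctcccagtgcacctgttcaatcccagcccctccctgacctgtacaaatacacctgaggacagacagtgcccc
MUC2, chr11:1092830-1093061, plus strand: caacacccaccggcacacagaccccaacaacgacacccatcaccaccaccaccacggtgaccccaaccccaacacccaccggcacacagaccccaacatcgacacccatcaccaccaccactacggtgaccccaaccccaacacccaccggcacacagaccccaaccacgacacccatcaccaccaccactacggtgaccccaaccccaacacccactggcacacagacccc
NEUROG3, chr10:71333179-71333378, minus strand: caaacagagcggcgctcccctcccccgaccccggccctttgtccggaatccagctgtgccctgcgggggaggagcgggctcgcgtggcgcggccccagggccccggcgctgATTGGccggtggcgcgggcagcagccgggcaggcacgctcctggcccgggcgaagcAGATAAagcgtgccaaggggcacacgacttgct
SST, chr3:187388183-187388382, minus strand: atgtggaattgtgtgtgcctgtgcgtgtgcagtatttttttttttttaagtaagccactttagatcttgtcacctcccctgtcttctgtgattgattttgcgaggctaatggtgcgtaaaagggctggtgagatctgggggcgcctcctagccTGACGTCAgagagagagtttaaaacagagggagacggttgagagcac

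EPS8L3 and MUC2 held no match. HNF4A held a GATA match whose first base was at −26 from the start and a KLF/SP match at −18, and PHGR1 held a GATA match at −125 after a run of CA repeats. NEUROG3 held an NFY match at −89 and a GATA match at −33. SST held the full cAMP response element at −47. NEUROG3 held 22 CpG dinucleotides and the other 200-base sequences between 1 and 7, and the G and C content ran from 47.5% in SST to 74% in NEUROG3. A match is a description of the letters and not evidence of binding.

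HNF4A, a nuclear receptor of liver and gut epithelium, is transcribed from a pair of promoters, and each carried a member. The upstream one lay at chr20:42984061-42984822 with a −log10 q of 20.9, a fold of 4.68 and 64 tags against a background of 12.9. The downstream one lay at chr20:43029998-43030269 with a −log10 q of 7.85 and a fold of 3.797. No other line had a peak within 10 kb of the upstream start, and the nearest DU-145, OVCAR-3 and SKOV-3 peaks were 27648, 28220 and 165534 bp away.

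Of 29 listed intestinal transcription factors, 27 had a start among the genes measured, and 5 of these carried a member (18.5%, against 11.4% of all genes). DU-145, OVCAR-3 and SKOV-3 had a promoter peak of their own at 3, 4 and 0 of them, where their shares of all genes were 17.8%, 12.7% and 0.755%. Of the 5, 3 had no promoter peak in another line, among them HNF4A and ISX, an intestinal homeobox factor (−log10 q of 4.87), against 1, 2 and 0 factors marked only in DU-145, OVCAR-3 and SKOV-3. FOXA2, a pioneer factor of endoderm, had a member with a −log10 q of 20.3 whose summit lay 989 bp inside a start, and OVCAR-3 also marked the gene. This member lay beside a shared COLO-205 peak at the same start, and the nearest OVCAR-3 peak was 623 bp away. VDR, the vitamin D receptor, had a member at an internal start (5.89), and DU-145 and OVCAR-3 marked another of its starts. A further 12 factors, among them GATA6, ELF3 and HNF4G, had promoter peaks in COLO-205 that other lines shared. The remaining 10, among them CDX1 and ATOH1, had no called promoter peak. On a list of 7 candidate regulators of this line named in the study, 2 carried a member.

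**Figure D1:**
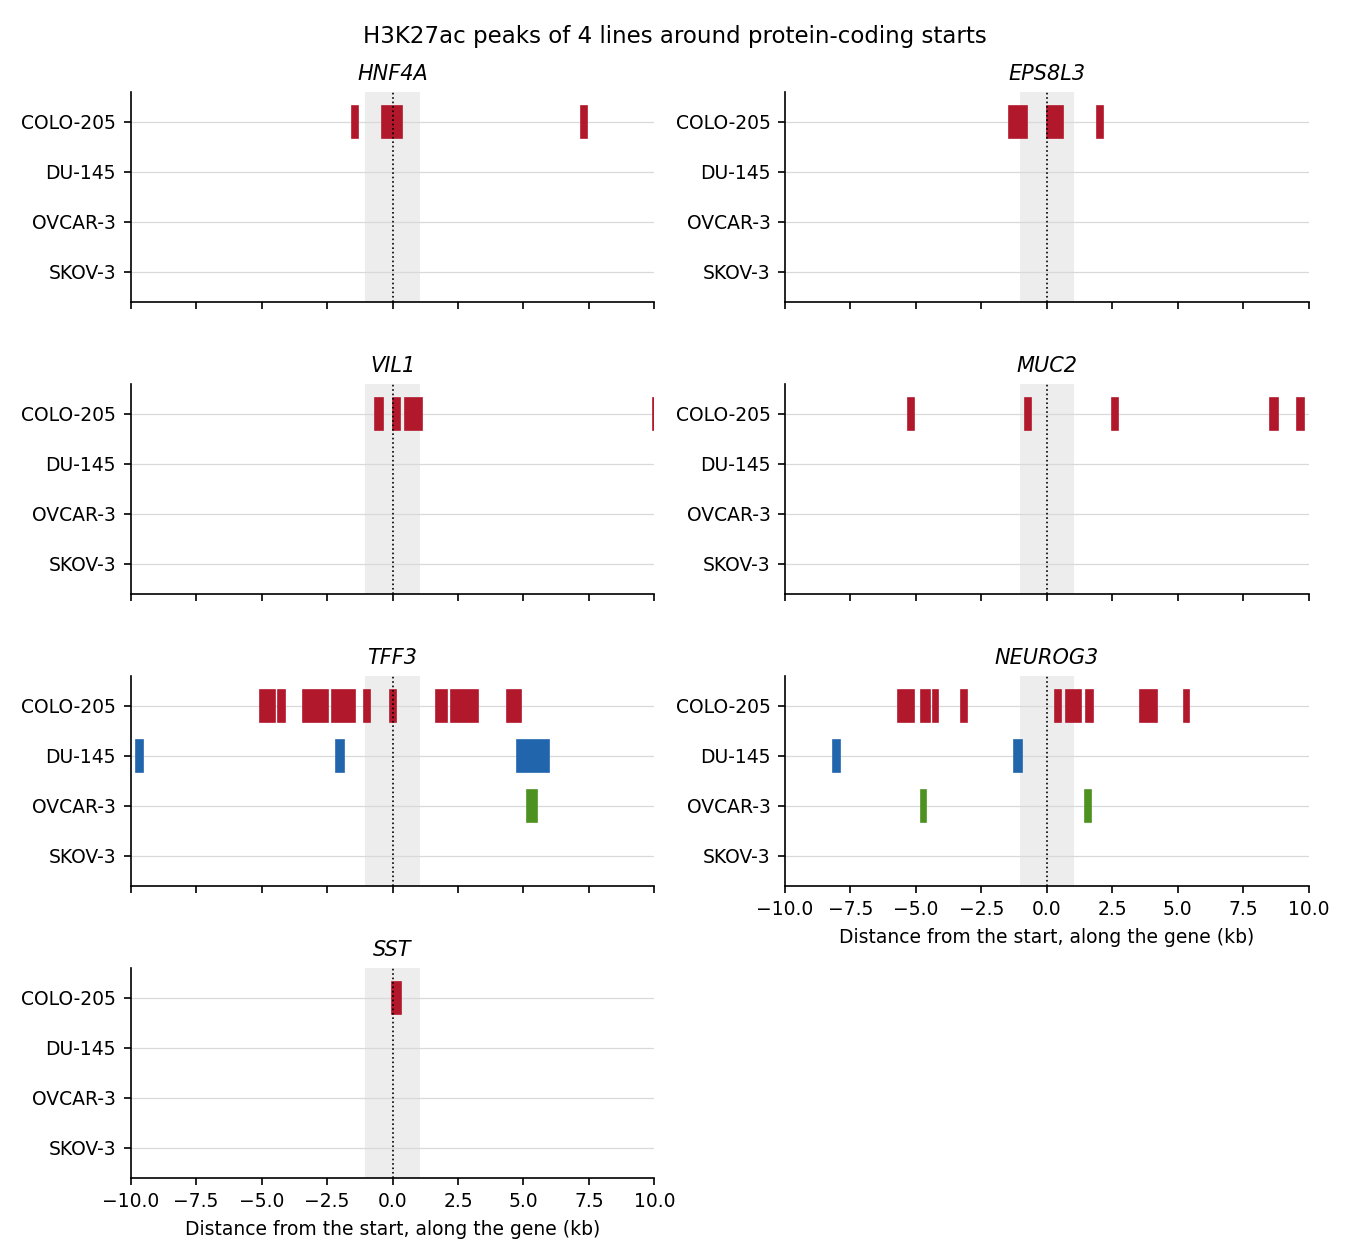
H3K27ac peaks of the 4 lines within 10 kb of the start of 7 genes, with the distance from the start along the gene in kb on the x axis, a row for each line and a bar for each peak (dotted line: the start, grey band: 1 kb to each side). COLO-205 had between 1 (SST) and 9 (TFF3, NEUROG3) peaks in a window, and peaks of another line were seen only at TFF3 and NEUROG3.

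Of 39 genes of the enterocyte surface and brush border, 10 carried a member (25.6%, against 11.4% of all genes), whereas DU-145 and SKOV-3 each had 1 gene with a promoter peak of their own alone and OVCAR-3 had 0, where their shares of all genes were 17.8%, 0.755% and 12.7%. Of the 10, 8 had no promoter peak in any other line (20.5% of the list, against 5.63% of all genes). The strongest was EPS8L3, an EPS8-like adaptor of the actin cytoskeleton, with a −log10 q of 29.3 and a fold of 6.91. PHGR1, expressed in gut epithelium, followed with 18.97 and 6.57, and its summit lay 705 bp before the start.

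VIL1 encodes villin, which bundles actin in microvilli. It carried 3 members within 1 kb of its start, at −515, +123 and +585 bp from the nearest start, with −log10 q of 12.3, 8.27 and 9.85 and folds of 5.66, 3.78 and 4.65. No other line had a peak within 10 kb of it. CDHR2 and CDHR5 encode the protocadherins that link neighbouring microvilli, and USH1C encodes the scaffold that holds them. CDHR2 had 4 members (highest −log10 q of 14.0), but OVCAR-3 and SKOV-3 also marked the gene, and DU-145 also marked USH1C (12.5). CDHR5 had a weak member (5.07) and no promoter peak elsewhere.

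TM4SF5 (−log10 q of 9.93) carried a member near its 5′ end, whereas those of MYO7B (8.03), CEACAM7 (6.87) and GPA33 (6.87) lay at internal starts. At GPA33, a surface antigen of colon epithelium, the summit was 76265 bp from the 5′ end of the gene. Members near the 5′ end were found at 7 of the 10 genes. No promoter peak of any kind was called in COLO-205 at 27 of the 39, among them FABP1, SI, CDH17 and KRT20, and 2, LGALS4 and PLS1, had shared peaks only. Some promoter peak was thus called at 30.8% of this list, less than the 48.9% of all genes.

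Of 31 genes of goblet cells and secreted mucosal products, 6 carried a member, and all 6 had no promoter peak in another line, against 1, 2 and 0 genes marked only in DU-145, OVCAR-3 and SKOV-3. This was 19.4% of the list, beside 11.4% of all genes with a member and 5.63% marked only in COLO-205. No promoter peak of any kind was called in COLO-205 at 21 of the 31, among them AGR2, SPDEF, REG4 and TFF1, and 4 had shared peaks only. Some promoter peak was thus called at 32.3% of this list, less than the 48.9% of all genes. TFF3 encodes a trefoil peptide of intestinal mucus. It had a member 62 bp inside its start with a −log10 q of 10.7 and a fold of 4.98, and another 861 bp before another of its starts (7.16). DU-145 had 3 peaks within 10 kb of TFF3 and OVCAR-3 had 1, none with a summit within 1 kb of the start. The membrane mucins MUC12 (5.20) and MUC17 (5.18) and the secreted MUC5B (5.12) had weaker members.

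The strongest peak of this list by −log10 q, at the secreted mucin MUC2 (11.7), lay in a tandem repeat 18008 bp from the 5′ end of the gene. As the printed sequence shows, 150 bp around its summit were 97.3% identical to the sequence 69 bp away. It had 58 tags but a local background of 17.2, and its fold was 3.24. At MUC6 the strongest member was of the same kind, 93.3% identical at a shift of 507 bp, with a background of 21.5 and a fold of 2.45, while a second member at chr11:1036832-1037094 lay at the 5′ end (5.37). Members in such repeats numbered 30 (1.04%, 0.701 to 1.48%), against 11 of 4575 peaks shared with 3 lines (0.240%, 0.120 to 0.430%), and the part that mapping in repeats has in them was not tested. The mucins on chromosome 11 also lay in a window of dense COLO-205 peaks, and outside such windows the list had 3 genes with a member.

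Enteroendocrine genes carried members more often than those of any other intestinal list, at 10 of 22 (45.5%, against 11.4% of all genes), and 9 of them had no promoter peak in another line, against 0, 1 and 0 genes marked only in DU-145, OVCAR-3 and SKOV-3. NEUROG3, the factor that commits progenitors to the endocrine fate, had 2 members in its coding exon, 942 and 407 bp inside the start, with −log10 q of 13.6 and 6.14. DU-145 and OVCAR-3 each had 2 peaks within 10 kb of it, the nearest 154 bp from a member. SST, which encodes the hormone somatostatin, had a member at chr3:187387858-187388185 with a −log10 q of 10.4 and a fold of 4.87. FEV, a factor of serotonin-producing cells, had 2 members before its start (9.72 and 7.63).

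The hormone gene PYY (8.68), the factors INSM1 (7.65) and NKX2-2 (6.54), TPH1 (7.04), which encodes the first enzyme of serotonin synthesis, the granule protein gene CHGB (5.94) and the prohormone convertase gene PCSK1 (4.46) completed the genes marked only in COLO-205. PAX6 (6.07) had 5 members and was also marked in OVCAR-3. CHGA, NEUROD1, GCG and CCK were among 12 genes with no called promoter peak, so 45.5% of the list had one, beside 48.9% of all genes. The members of this list were mostly of low strength, and only NEUROG3 and SST passed a −log10 q of 10. Since neurons also use genes such as SST, NKX2-2 and INSM1, the neuronal list is given beside it. Of 23 neuronal genes, 10 carried a member at any start, a share (43.5%) like that of the enteroendocrine list (45.5%). Fewer neuronal genes, 6, were marked only in COLO-205 (26.1%, against 40.9% of the enteroendocrine list). Members near the 5′ end were found at 3 neuronal and 7 enteroendocrine genes, beside 6.31% of all genes.

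Of 23 genes of intestinal stem cells and WNT targets, 6 carried a member (26.1%, against 11.4% of all genes) but only SMOC2 had no promoter peak elsewhere, which is 4.35% of the list and near the 5.63% of all genes. TCF7 (−log10 q of 21.9), which encodes a nuclear partner of beta-catenin, AXIN2 (18.0), NKD1 (7.87), LEF1 (4.92) and BMP4 (4.80) were marked in at least 1 other line. OVCAR-3 had its own promoter peaks at 5 genes of this list (21.7%, against 12.7% of all genes) and DU-145 at 2 (8.70%, against 17.8%). LGR5 and RNF43 had no called promoter peak in COLO-205. Over all 5 intestinal lists, 37 of 139 genes carried a member (26.6%) and 27 were marked only in COLO-205 (19.4%), beside 11.4% and 5.63% of all genes. Of the same genes, 2 were marked only in DU-145 (1.44%, against 4.65% of all genes), 7 only in OVCAR-3 (5.04%, against 4.31%) and 1 only in SKOV-3 (0.719%, against 0.281%). Outside dense windows the COLO-205 counts were 33 and 23. Some promoter peak was called in COLO-205 at 46.8% of the genes of all 5 lists, beside 48.9% of all genes. By list, the share was above that of all genes for transcription factors (63.0%) and stem cell and WNT genes (69.6%) only.

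Members also lay at genes of neighbouring metabolic functions. In a list of 30 liver and gut genes, most but not all of secreted plasma proteins, 7 carried a member (23.3%, against 11.4% of all genes). Of these, 6 were marked only in COLO-205, and DU-145 and OVCAR-3 each marked 3 genes of the list alone. FGF19, the ileal hormone that restrains bile acid synthesis, had 3 members (highest −log10 q of 8.65), followed by APOH (8.17), F2 (7.45) and HPD (7.23). ALB, APOA1 and TTR were among 21 genes of this list with no called promoter peak in COLO-205. Of 41 genes of xenobiotic and bile acid metabolism, 7 carried a member (17.1%), led by the fatty acid hydroxylases CYP4F12 (17.4) and CYP4F3 (15.9), the nuclear receptor NR0B2 (9.17) and the bile acid transporter subunit SLC51A (6.82). COLO-205 and DU-145 each marked 5 genes of this list alone, and 33 of the 41, among them CYP3A4 and UGT1A1, had no called promoter peak in COLO-205. Some promoter peak was called in COLO-205 at 30% of the liver and gut list and 19.5% of the xenobiotic list. Both shares were below the 48.9% of all genes.

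Lists of other tissues were read in the same way, beside 11.4% of all genes with a member and 5.63% marked only in COLO-205. Of 25 genes of meiosis and the germ line, 11 carried a member (44%) and 6 were marked only in COLO-205 (24%), among them PIWIL1 (−log10 q of 30.9), SPATA16 (14.8) and LIN28B (9.44), while DPPA4 (9.87) was also marked in OVCAR-3. DU-145 had a peak of its own at 5 genes of this list (20%, against 17.8% of all genes) and OVCAR-3 at 7 (28%, against 12.7%). They marked 3 and 2 of these genes alone (12% and 8%, against 4.65% and 4.31% of all genes). A share above that of all genes was thus not particular to COLO-205. In the neuronal list the strongest were RBFOX3 (12.9), STMN2 (9.40), SNAP25 (8.17) and CACNA1A (7.83). RBFOX3, SNAP25 and CACNA1A had them at internal starts. Of 12 prostate genes, 3 carried a member, as many as had a peak of their own in OVCAR-3 and 1 more than in DU-145, and KLK4 (12.1) and KLK3 (8.06) were marked only in COLO-205, whereas TMPRSS2 (38.9), a protease gene also expressed in colon epithelium, was also marked in DU-145 and OVCAR-3 and had a shared peak beside its member. The Müllerian list had 3 of 15, with HOXA9 (19.7), HOXA10 (14.1) and PAX8 (9.17), of which HOXA9 was marked only in COLO-205, and OVCAR-3 had a peak of its own at 4.

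The epithelial junction and keratin list had 6 of 31 genes with a member (19.4%, against 11.4% of all genes) and 2 marked only in COLO-205 (6.45%, against 5.63%). They were led by VILL (11.1), SPINT1 (10.8), LAD1 (8.33) and CLDN15 (7.43). DU-145 had its own promoter peak at more of these genes, 9 (29.0%, against 17.8% of all genes), and OVCAR-3 at 5 (16.1%, against 12.7%). Some promoter peak was called at 28 of its genes in COLO-205, at 28 in OVCAR-3 and at 23 in DU-145. Genes of growth factors and their receptors had 5 of 30 (16.7%, against 11.4% of all genes). IGF2 (8.94), FGF19 and RET (6.597) were marked only in COLO-205 (10%, against 5.63%), and FGFR4 (13.5) was marked elsewhere too. DU-145 and OVCAR-3 had their own peaks at 6 and 7 genes (20% and 23.3%, against 17.8% and 12.7%). They marked 2 and 4 alone (6.67% and 13.3%, against 4.65% and 4.31%). IGF2 lay in a window of dense COLO-205 peaks, and outside such windows the COLO-205 counts were 4 and 2.

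Immune genes had 2 of 24, IKZF1 (6.66) and CD79B (5.31). Mesenchymal genes had 1 of 25, TGFBI (8.35), at an internal start that DU-145 marked elsewhere within 1 kb. Interferon and antigen presentation genes had 3 of 33, IFITM3 (6.27), IRF1 (5.07) and IFI27 (3.58), none of them marked only in COLO-205, whereas DU-145 had its own promoter peaks at 12. No member lay at any of 26 housekeeping genes. The shares of these 4 lists were below that of all genes with a member (11.4%). Both immune genes were marked only in COLO-205, which is 8.33% of that list, against 5.63% of all genes.

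**Figure D2:**
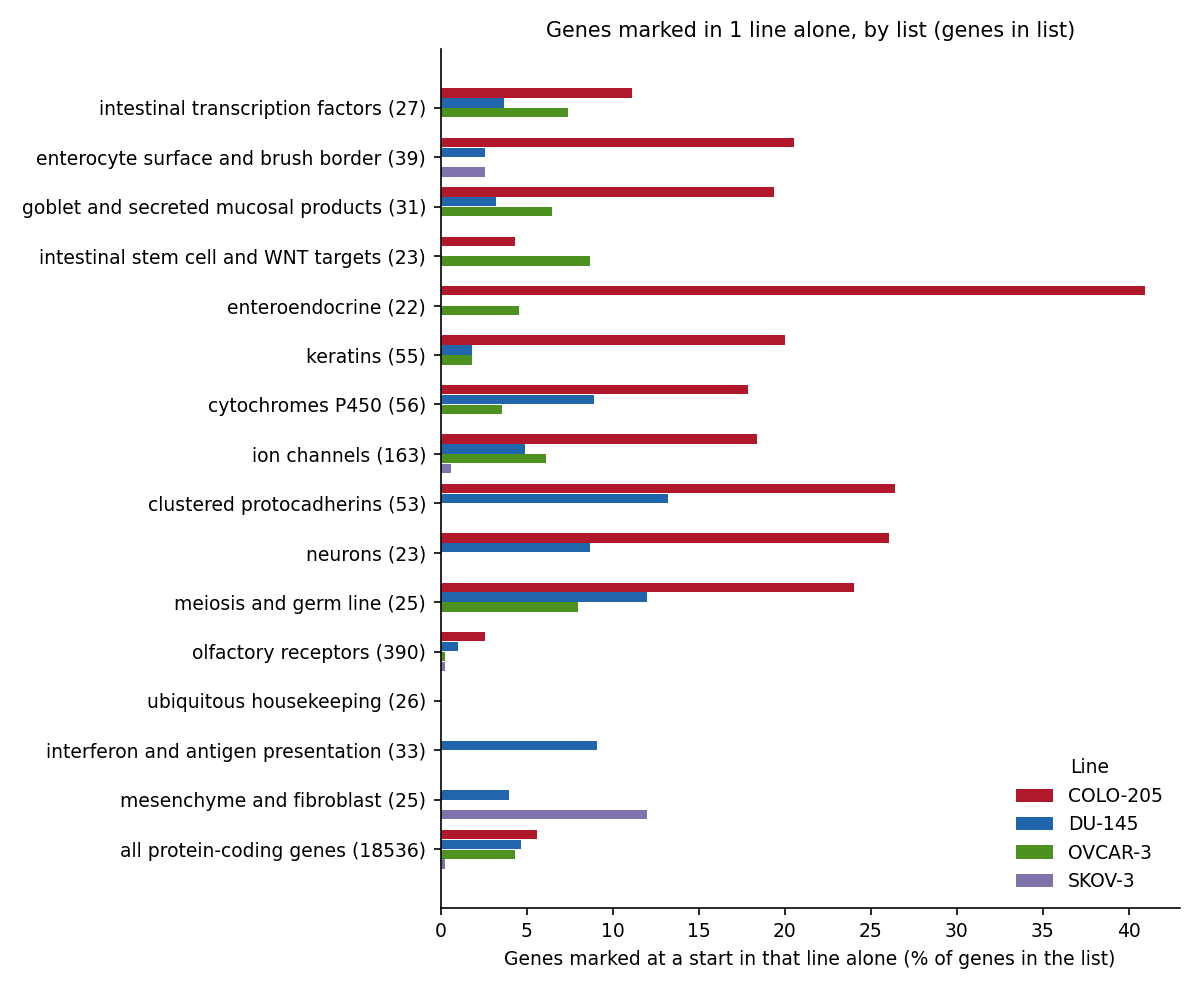
Genes marked at a start in 1 line alone, as a percentage of the genes in each list on the x axis, with the lists on the y axis, the number of genes in each in brackets and a bar for each line. COLO-205 marked 40.9% of the enteroendocrine and 20.5% of the brush border list alone, against 5.63% of all genes. It also marked 26.4% of the clustered protocadherins, 26.1% of the neuronal list and 24% of the germ line list alone.

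Whole gene families gave a wider view, beside 11.4% of all genes with a member and 5.63% marked only in COLO-205. Among ion channels 46 of 163 genes carried a member (28.2%) and 30 were marked only in COLO-205 (18.4%), led by the potassium channels KCNK16 (−log10 q of 58.3) and KCNK17 (44.8) and the calcium channel subunit gene CACNA2D4 (16.9). DU-145 marked 8 and OVCAR-3 10 of them alone. Solute carriers had 63 of 365 (17.3%) and 33 marked only in COLO-205 (9.04%), against 15 and 14 in those lines. The strongest were SLC35D3 (40.7), SLC7A7 (32.7), a basolateral amino acid exchanger subunit of gut, and the riboflavin transporter gene SLC52A3 (22.6).

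The clustered protocadherins of chromosome 5 had 14 of 53 genes (26.4%, against 11.4% of all genes), all marked only in COLO-205 and led by PCDHGC4 (20.1), PCDHGA8 (15.8) and PCDHGA7 (13.1). DU-145 alone marked another 7 genes of these clusters and OVCAR-3 marked 0. Among 55 keratins, 12 carried a member (21.8%), and all but KRT15 (14.8), a basal cell keratin that the other lines marked too, were marked only in COLO-205. These were keratins of hair, epidermis and cornea such as KRT35 (11.1) and KRT27 (9.87), while the simple epithelial keratins KRT8, KRT18 and KRT19 had shared peaks. Cytochromes P450 had 13 of 56 (23.2%), led by the steroidogenic CYP11A1 (21.1), CYP4F12 and CYP27A1 (17.4), with 10 marked only in COLO-205 (17.9%, against 5.63% of all genes).

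The share of all genes with a member, 11.4%, stands beside the remaining families. HOX genes had 10 of 39 (25.6%), led by HOXA9, HOXA10 and HOXD12 (9.36), and 5 were marked only in COLO-205 against 3, 4 and 2 in the other lines. Receptors named GPR or ADGR had 11 of 93 (11.8%), led by GPR35 (19.7), which is expressed in gut, and ADGRD1 (13). Claudins had 3 of 21 (14.3%), with CLDN18 (13.1) the strongest, and tetraspanins 3 of 26 (11.5%), with TSPAN32 (18.3). Proteins named TMEM had 28 of 228 (12.3%). The receptor, claudin, tetraspanin and TMEM families were thus near the share of all genes with a member. Marked only in COLO-205 were 8.60% of the receptors, 14.3% of claudins, 7.69% of tetraspanins and 5.26% of TMEM genes, beside 5.63% of all genes. OVCAR-3 had its own peaks at 7 claudins and marked 3 alone, as many as COLO-205. Serine protease inhibitors had 2 of 32 with a member (6.25%) and histones 4 of 71 (5.63%), led by H4C9 (15.2) and H4C13 (10.7).

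The ZNF, ribosomal protein and olfactory receptor families had shares below that of all genes. Of 500 zinc finger genes named ZNF, 29 did (5.80%), led by ZNF69 (25), against 90 and 72 with a peak of their own in DU-145 and OVCAR-3, and of 78 ribosomal protein genes only RPL38 did (7.25). Olfactory receptors, best known for their role in the nose, had 10 of 390 (2.56%), all marked only in COLO-205, with −log10 q up to 11.1 at OR10H5, 10.97 at OR2M2 and 10.3 at OR2Y1. The other lines marked 4, 1 and 1 olfactory receptors alone.

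Over all genes, 1043 (5.63%) carried a member and had no promoter peak in another line, which was 49.6% of the genes with a member (47.4 to 51.7%). By the same count DU-145 alone marked 861 genes (4.65%), OVCAR-3 798 (4.31%) and SKOV-3 52 (0.281%). A promoter peak of its own was found for DU-145 at 3298 genes (17.8%), for OVCAR-3 at 2345 (12.7%) and for SKOV-3 at 140 (0.755%). COLO-205 had some promoter peak at 48.9% of genes, DU-145 at 60.4%, OVCAR-3 at 60.1% and SKOV-3 at 31.7%. COLO-205 had fewer genes with such a peak than DU-145 or OVCAR-3 but more genes with no promoter peak elsewhere. Most genes had 1 member (1558), 546 had 2 or more, and SEPTIN9 with 13 and KIF1A with 11 had the most.

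A member is not always a gene that only COLO-205 marks. Of the 2890 members, 268 (9.27%) lay beside a shared COLO-205 peak at the same start, 240 (8.30%) at a start where another line had a peak elsewhere within 1 kb, and 967 (33.5%) at a gene that another line marked at another start. The remaining 1415 (49.0%, 47.1 to 50.8%) were at genes with no promoter peak in another line. The median −log10 q hardly varied over these classes, from 6.83 to 7.47. The median gap to the nearest peak of another line was 6352 bp, with 9.55% within 350 bp and 44.8% within 5 kb.

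Most of the strongest members were at genes outside the intestinal lists. SGK1, a kinase that regulates sodium transport, had the highest −log10 q (86.3, fold 16.6), from 101 tags against a background of 5.15. It had 4 members, and all 3 other lines marked its promoter, the nearest 103 bp away. DNAH8, a dynein heavy chain of sperm flagella, had 72.1, TCF21, a mesodermal factor, 62.2, KCNK16 58.3, and DAAM2, a WNT pathway formin, 56.5. Further strong members were at GLP1R, the receptor of the incretin hormone GLP-1 (55.8, fold 14.6), KCNK17 (44.8), SLC35D3 (40.7) and MOCS1 (39.0), which encodes an enzyme of molybdenum cofactor synthesis.

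These genes all lie on chromosome 6, in windows where COLO-205 peaks were dense. After the data were seen, a dense window was defined as 1 Mb with at least 100 COLO-205 peaks and at least 5 times as many as any other line. There were 36 such windows on 11 chromosomes, 12 of them on chromosome 6, holding between 101 and 436 COLO-205 peaks each against a median of 11 for all windows with peaks. They held 228 members (7.89%), with a median −log10 q of 8.93 against 7.07 outside, and 15 of the 25 genes with the strongest members, 14 of them on chromosome 6. Shared promoter peaks in these windows had a median of 50 tags, against 43 outside. The part of copy number in these windows was not tested. Outside them, 970 of 18265 genes (5.31%) were marked only in COLO-205.

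Of the other strong genes, those of chromosome 6 were PDE7B (36.5), HBS1L, KIF6, LRFN2 and MAP7, and PIWIL1 (30.9) lay in a dense window of chromosome 12. Outside dense windows strong members were at TMPRSS2 (38.9), C1orf226 (35.8), SLC7A7 (32.7), BATF (31.9), an AP-1 family factor best known in lymphocytes, CPSF4L (31.7), NSFL1C (30.8), SHF (30.2), ADAP1 (29.8) and EPS8L3 (29.3). BATF, C1orf226, CPSF4L and EPS8L3 had no promoter peak in another line. Among the further 15 genes outside dense windows, a rank added after the data were seen, were FOXK2, whose member lay in a tandem repeat, CXCR4 (27.3), the chemokine receptor, with 4 members and no promoter peak elsewhere, MYCN (26.1), also marked in OVCAR-3, PPARA (24.5), also marked in DU-145, and LAT (22.8), an adaptor of T cell signalling.

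As a class, members were weaker than the promoter peaks COLO-205 shared with other lines. Their median −log10 q was 7.17, against 7.996 for the 1548 peaks shared with 1 line, 10.1 for the 3269 shared with 2 and 15.9 for the 4575 shared with 3. A −log10 q of at least 10 was reached by 565 members (19.6%) and by 77.6% of peaks shared with 3 lines. The fold enrichment did not follow this order, with medians of 4.07, 3.91, 3.85 and 4.62. Members had fewer tags (median of 25 against 50) over a lower local background (5.44 against 10.03), and were narrower (288 against 485 bp).

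**Figure D3:**
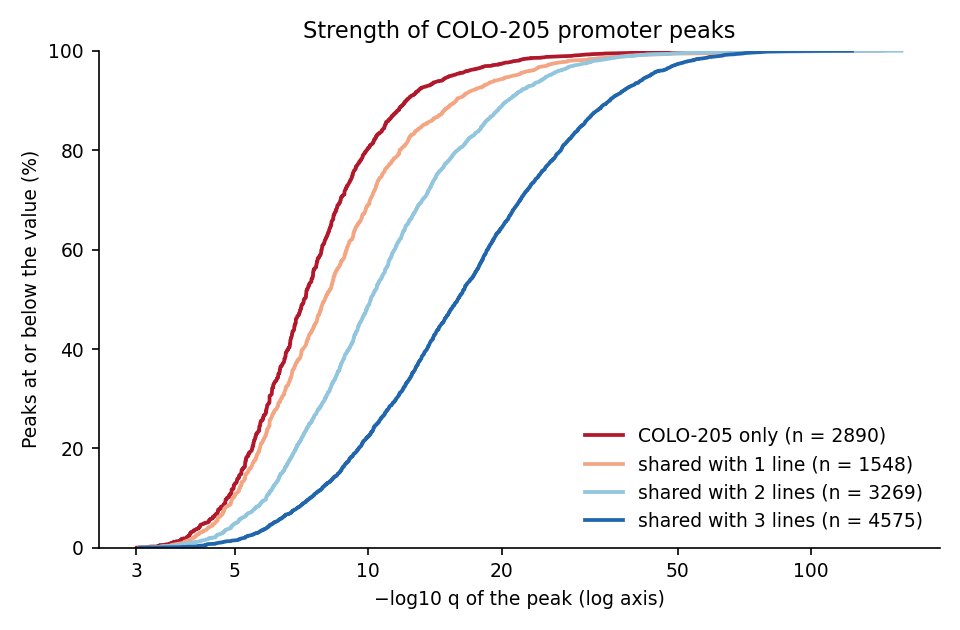
Cumulative share of COLO-205 promoter peaks, in % on the y axis, at or below a −log10 q on the log x axis, with a line for members and for peaks shared with 1, 2 and 3 other lines. The curve of the members lies to the left, with medians of 7.17, 7.996, 10.1 and 15.9.

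Members also lay at other places of their genes. They were centred a median of 370.5 bp from the nearest start, against 184 bp for peaks shared with 3 lines, and 44.2% of summits were upstream, against 27.5%. Introns held 43.9% of summits, coding exons 20.5%, UTR exons 18.5%, and 17.1% were outside protein-coding transcripts, whereas 33.3% of the peaks shared with 3 lines were in UTR exons. Only 1376 members (47.6%, 45.8 to 49.5%) were within 1 kb of the 5′ end of a gene, a split added after the data were seen, and 1514 were at internal starts of annotated transcripts. For peaks shared with 3 lines the share was 79.9%, and for members at genes with no promoter peak elsewhere 69.9%. The summit distance is in part set by the rule, since it allows up to 1000 bp in both classes. Counting 5′ ends alone, 1169 genes had a member (6.31%), against 2233 (12.0%), 1549 (8.36%) and 83 (0.448%) with a peak of their own in DU-145, OVCAR-3 and SKOV-3.

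The sequence under the summits was poor in CpG dinucleotides. In 300 bp around the summit, the observed over expected CpG ratio was below 0.6 in 1783 members (61.7%, 59.9 to 63.5%), against 41.5%, 17.5% and 8.33% of peaks shared with 1, 2 and 3 lines. The median ratio was 0.473 against 0.846 for peaks shared with 3 lines, and the G and C content 63.3% against 71.7%. Members at 5′ ends were low in CpG in 46.2% and those at internal starts in 75.8%. In windows around starts, 61.1% of those with a member were low in CpG, against 42.7% of 74249 protein-coding starts and 6.22% of those with a peak shared by 3 lines. Low CpG content did not go with a stronger or weaker peak among members at genes marked only in COLO-205 (median −log10 q of 7.25 against 7.07).

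Of the 1415 members at genes marked only in COLO-205, 712 (50.3%) were low in CpG, and the gene groups are given beside this share. All 10 brush border members at genes marked only in COLO-205 were low in CpG, as were 7 of 8 goblet cell members, 11 of 12 at keratins, 12 of 17 at cytochromes P450 and 7 of 7 in the xenobiotic list. In the enteroendocrine list 3 of 12 were, in the neuronal list 3 of 10, in the germ line list 2 of 8, and none of 16 at protocadherins or of 8 at HOX genes. Low CpG content was not limited to epithelial genes, with 6 of 9 members at olfactory receptors and 11 of 16 at receptors named GPR or ADGR, and it depended on the window at protocadherins, where 6 of 15 windows around starts were low. The printed EPS8L3 and NEUROG3 sequences, which lie before a start and outside the members, held 3 and 22 CpG dinucleotides.

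**Figure D4:**
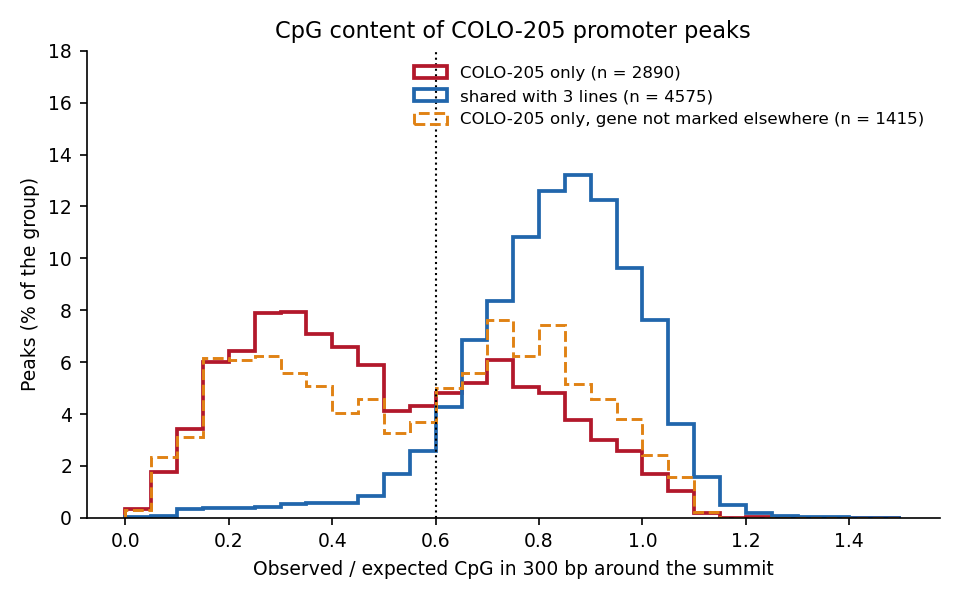
Distribution of the observed over expected CpG ratio in 300 bp around the summit, with the ratio on the x axis (higher values in the last bin) and the share of peaks of each group in % on the y axis (dashed: members at genes not marked elsewhere, dotted line: 0.6). Members have a median of 0.473 and peaks shared with 3 lines one of 0.846.

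Motif matches were counted in windows of 250 bases before to 50 after a start. The KLF/SP box CCGCCC was present in 44.1% of windows with a member, 79.0% of those with a peak shared by 3 lines and 51.7% of all starts. The ETS letters CCGGAAG were in 4.55%, 19.6% and 12.1%, the NRF1 letters (GCGC, any 2 bases and GCGC) in 4.19%, 17.4% and 9.89%, and the cAMP response element TGACGTCA in 1.30%, 2.96% and 2.11%. All of these hold CpG.

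With the exception of NFY, letters without CpG were more frequent at members than at starts with a peak shared by 3 lines, and most were near the level of all starts. The TATA box TATAAA was in 9.09%, 3.89% and 9.55%, and the GATA letters AGATAA in 8.42%, 2.56% and 8.14%. AP-1 (TGANTCA) was in 5.22%, 3.73% and 5.92%, TCF/LEF (ATCAAAG) in 2.17%, 0.679% and 2.31%, CDX (CCATAAA) in 1.66%, 0.927% and 2.08%, FOXA (TGTTTAC) in 1.86%, 1.52% and 2.80%, and NFY (CCAAT) in 25.7%, 29.2% and 33.1%. The HNF4 letters CAAAGTCCA, present at 16 windows with a member (0.632%), were in 0.0905% and 0.342% of the others, but among starts low in CpG the 3 shares were closer, at 0.970%, 0.727% and 0.567%. Among the starts low in CpG (1546 with a member, 275 with a peak shared by 3 lines and 31720 of all starts) some of these orders changed. KLF/SP (25.9%, 46.5% and 18.5%) and ETS (3.49%, 12% and 3.10%) were still less frequent at members than at shared peaks, and AP-1 turned, with 7.05% at members, 16.0% at shared peaks and 9.94% of all starts. TATA (10.3%, 6.55% and 16.8%) and GATA (10.5%, 7.27% and 14.1%) were less frequent at members than at all starts. In 300 bp around the summit the orders of members and peaks shared with 3 lines were as in all start windows, with KLF/SP in 39.2% and 72.9% and GATA in 3.81% and 1.90%, except that NFY was more frequent at members (18% and 11.7%). Both strands were searched, and no motif is part of another.

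The share of COLO-205 promoter peaks that were members varied between chromosomes. It was highest on chromosome 20 (211 of 578, 36.5%, 32.6 to 40.6%) and 15 (33.8%), and lowest on chromosome 14 (13.7%) and 18 (13 of 133, 9.77%, 5.31 to 16.1%). The median tag pileup of peaks shared with 3 lines, all from the same COLO-205 library, was 72.5 on chromosome 20 and 39 on chromosome 18. Over 21 chromosomes the share and this pileup went together with a Pearson r of 0.648 and a Spearman rho of 0.599. Chromosome 7, where SKOV-3 had 65 peaks and 39 peaks were shared with 3 lines, is a special case, and without it r was 0.739, and without chromosomes 7 and 20 it was 0.671. The number of peaks of the other lines also varied, from 3854 on chromosome 21 to 15586 on chromosome 1. It was 15051 on chromosome 14 and 4452 on chromosome 20. The parts of copy number and of the other lines' peaks in these shares were not tested.

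**Figure D5:**
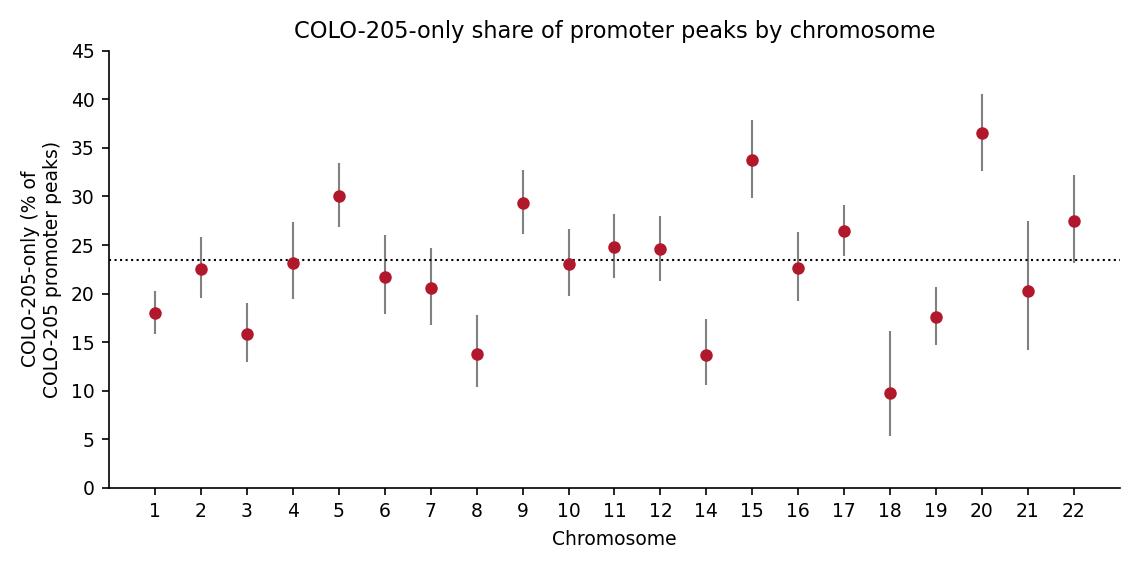
COLO-205-only share of COLO-205 promoter peaks in % on the y axis for each chromosome on the x axis, with exact 95% intervals and all chromosomes (23.5%) as a dotted line. The shares run from 9.77% on chromosome 18 to 36.5% on chromosome 20.

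Genes with members were often flanked by further COLO-205-only peaks. Within 50 kb of a start, genes marked only in COLO-205 had a median of 4 distal COLO-205-only peaks and 12.3% had none. Genes with a member and a promoter peak in another line had more, a median of 7 (7.63% with none). Genes with shared COLO-205 promoter peaks alone had a median of 2 (27.02% with none), and genes with no promoter peak in COLO-205 a median of 1 (43.4%). The median was 16 for the 3 transcription factor genes marked only in COLO-205, 5.5 for the brush border genes, 5 for the neuronal genes and 15.5 for the goblet cell genes, which was 3 outside dense windows. Enteroendocrine genes had a median of 7, with none at 2 of the 9. Close by, 492 members at genes marked only in COLO-205 (34.8%) had no other COLO-205 peak within 5 kb, less than the 45.5% of peaks shared with 3 lines, and these had a median −log10 q of 6.84, against 7.64 for the 363 with at least 3 (25.7%, against 9.27% of the shared peaks).

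At the limits of the rule, the members with summits farthest from a start were at COL13A1 and CARHSP1 (1000 bp) and ABHD12 (999 bp), with −log10 q of 6.33, 5.25 and 7.58. Just outside, at 1001 bp, were COLO-205-only peaks of DNAH8 (25.1), SULT1C2 (9.10) and CCDC166 (5.94). The shortest gap to a peak of another line was 2 bp, at CHID1 (6.81), HSPB7 (5.47) and DUS1L (4.52), and peaks at ARL6IP4, SPSB1 and OSBPL5 were no members because of 3, 4 and 8 shared bases. A −log10 q below 5 was found for 369 members (12.8%), which are the closest to the threshold of the peak calling.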

How the data were processed

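Reads were aligned by the authors with Bowtie2 (2.1.0) against hg19, and MACS2 (2.1.0.20150603) gave narrow peaks for every library separately below a q-value of 0.001, with versions from the submitters' processing notes. For each deposited peak the file gives a score, the fold enrichment (a ratio to local background) and its −log10 p and −log10 q. Merging of peaks under 350 bp apart is stated in the methods, but the lists hold closer neighbours and were used as deposited. Tags and background at a summit were recovered from fold and −log10 p (99.9 to 100% of peaks in each list, within 0.001 on the −log10 scale).

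Starts are those of GENCODE release 44 lifted to GRCh37, with protein-coding transcripts only, and distances are signed along the gene. The 18 lists, 15 families and 12 motifs, like the members themselves, were chosen with earlier results of these data known, and a list of 7 regulators was taken from the study. Counts cover every member, and some items are not reported here by name or sequence. Named, apart from these, are the 25 genes with the highest −log10 q, up to 4 genes of each list and 3 of each family by −log10 q, further list genes where a sentence gives them, and the peaks nearest to each limit. List sizes in the text are of the genes measured, since listed genes in the regions left out, without a matching name or not protein-coding were dropped. A gene counts as marked where a summit lies within 1 kb of any of its starts. Gene names are those of the annotation, and none of the deposited columns of samples was left unused. The overlap, start assignment, motif search and tag recovery were tested on simulated data. The software was pandas 2.3.3, numpy 2.4.6, pysam 0.24.0, scipy 1.17.1 and matplotlib 3.10.9 under Python 3.11.15. Alternatives comprised thresholds of 5 and 10 on −log10 q, other peaks widened by 350 bp, an overlap of 50% of the peak, merged peaks, distances of 500 bp and 2 kb, 1 start per gene, each other line left out, the same number of peaks in each list and a 200 bp sequence window. Dense windows, tandem repeats and the split by 5′ ends were added after the data were seen. Signal tracks, mutations and expression were not analysed here.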

Additional observations from a re-analysis of the deposited data

How the results depend on the processing

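The count of members, 2890 at 2104 genes (23.5% of promoter peaks, with 49.6% of the genes not marked elsewhere and 37 intestinal genes), depended on the peak threshold and on the starts used. With a −log10 q of at least 5 the share of members was 21.9%, and with at least 10 there were 565 members at 474 genes, a share of 9.01%, and 14 intestinal genes, with 63.5% of windows low in CpG against 61.7%. Taking the same number of peaks from each list left 405 members at 374 genes, with 10.1% and 66.3% for the shares. A distance of 500 bp gave 1757 members (17.8%, and 58.2% of genes not marked elsewhere), and 2 kb gave 4635 (31.0% and 39.4%). With 1 start per gene there were 1416 members at 1214 genes (16.5% and 79.6%). Widening the other peaks by 350 bp gave 21.3% and 54.8%, and requiring an overlap of 50% gave 25.4% and 46.5%. Without DU-145 the shares were 29.5% and 55.5%, and without OVCAR-3 29.7% and 56.3%. Without dense windows, added after the data were seen, the share was 22.4%. Merged peaks and leaving out SKOV-3 moved neither share beyond its interval. Of the shares of the 12 motifs in the windows around summits, 11 moved beyond their interval with a 200 bp window and 6 with the stricter threshold of 10. The shares in windows around starts were not recomputed. A stricter threshold on COLO-205 peaks, a shorter distance or a left-out line sets the direction of the count of members by construction. The directions of the shares are not all set in this way. Taking the same number of peaks removed peaks of COLO-205 and of other lines at once, so it sets no direction. Causes of these moves were not tested. No paired analysis was possible because each line has 1 library and no result comes from a test. SKOV-3, with 14001 peaks, can remove few peaks from the members, so a member is in the main a peak not called in DU-145 or OVCAR-3.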
